A study of Mus musculus with 4 samples.

Results

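Osteopontin (Spp1) and arginase 1 (Arg1) mark a macrophage state described in many tumors, and the spots where both transcripts together were most abundant were compared here with the rest of the tissue. The data are spatial transcriptomes (10x Genomics Visium) of 4 frozen MC38 tumor sections, 1 per mouse. In this assay tissue is laid over a grid of printed spots whose barcodes record where each RNA came from, and every molecule is counted once through its unique molecular identifier (UMI). A spot is a small region that can hold several cells of different types, so no spot is called a cell type here. The high spots were chosen by measured values: those with 5000 or more UMIs were ranked within each section on the share of their UMIs that came from Spp1 and Arg1 together. The highest 10% of each section were taken as Spp1/Arg1-high spots and the lower 50% as the comparison (lower-half spots), which gave 1179 high spots and 5898 lower-half spots of 11798 ranked and 11947 in all. CC075F1 replicate 1 held 265 high spots, CC075F1 replicate 2 held 325, CC080F1 replicate 1 held 277 and CC080F1 replicate 2 held 312, and values are given below in this order of sections.

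MC38 cells, a murine colon cancer line that arose in C57BL/6, were grown from 500000 cells under the skin of female mice aged 8 to 12 weeks. The hosts were F1 animals with a C57BL/6J parent, 2 of them with a CC075/UncJ parent (CC075F1) and 2 with a CC080/TauUncJ parent (CC080F1). The Collaborative Cross strains behind these names are recombinant inbred mice from a shared set of founders. In the study CC075F1 hosts count as responders to PD-1 blockade and CC080F1 hosts as non-responders. Each of the 4 mice received 200 µg of the isotype control antibody 2A3 as 1 intraperitoneal dose once its tumor measured 75 to 110 mm3, and was killed 48 hours after it. No section of an anti-PD-1 treated tumor was analysed here. MC38 is a single transplanted line, so the tumor cells of all 4 sections share 1 origin and the groups differ in the host.

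Osteopontin is a secreted matrix phosphoprotein that binds integrins and CD44, and macrophages make it in wounds, fat and tumors. Arginase 1 splits arginine into ornithine and urea, which draws on the same substrate as nitric oxide synthase and feeds polyamine and proline synthesis. Macrophages with much Spp1 are often described in poorly oxygenated, scarred or necrotic tumor areas, away from macrophages that express the interferon-induced chemokine Cxcl9. Both genes are also transcribed outside macrophages, Spp1 by some tumor cells and fibroblasts and Arg1 by some granulocytes.

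The section totals ran from 82594649 to 146460975 UMIs, and the median spot held 31139 to 41740 UMIs. Skeletal muscle genes summed to 193 CPM (UMIs of a gene per 1000000 UMIs) in CC075F1 replicate 2 and to 8.90 to 28.1 CPM in the other 3 sections, which bears on the muscle gene Acta1 below. CC075F1 replicate 1 stood apart from the other 3 sections in the hypoxia, T cell, interferon and vessel lists described below.

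The values that chose the spots are given as a description, with no test. Spp1 stood at 354, 657, 454 and 1217 CPM in high spots, against 60.5, 76.1, 81.1 and 203 CPM in lower-half spots. Arg1 stood at 82.8, 30.5, 170 and 120 CPM against 7.02, 6.55, 11.6 and 26.2 CPM, in the same order. The lowest high spot and the highest spot below it lay at 292.2 and 291.5 CPM of both genes in CC075F1 replicate 1 and at 907.2 and 906.6 CPM in CC080F1 replicate 2, so the limit cut a continuous range. Most high spots owed their rank to Spp1. It gave more UMIs than Arg1 in 240 of 265, 316 of 325, 230 of 277 and 299 of 312 high spots, and 34.0%, 45.8%, 15.5% and 18.6% of them had no Arg1 UMI at all.

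Spp1 and Arg1 marked spots that overlapped in small part, least in CC080F1 replicate 2. Among spots in the highest 10% for one of the genes, 24.2%, 22.5%, 27.8% and 11.5% were in the highest 10% for the other, where unrelated rankings would share 10.0%, and the Spearman correlation of the pair across all ranked spots was 0.15, 0.20, 0.24 and 0.20 in the 4 sections. These are correlations across spots that share a library and a depth, and they carry no test. Where the spots were ranked on Arg1 alone, Spp1 was higher in the highest 10% than in lower-half spots by 0.70 on the log2 scale (SE 0.10, adjusted p = 0.0035, edgeR quasi-likelihood test over 4 paired sections). Where they were ranked on Spp1 alone, Arg1 differed by 1.57 on the log2 scale (SE 0.22), which did not pass the threshold (adjusted p = 0.0655). Where each spot was ranked on its neighbours and its own UMIs were left unused, both genes were higher in the highest 10%, Spp1 by 1.92 (SE 0.14, adjusted p = 0.00774) and Arg1 by 2.45 (SE 0.30, adjusted p = 0.0266).

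High spots lay beside each other and often at the tissue border. Of the up to 6 neighbours of a high spot, 31.6%, 35.8%, 47.3% and 40.1% were themselves high in the 4 sections, where 10.0% of all ranked spots were. The excess was 28.7 ± 6.71 percentage points (SD, n = 4 sections) and was positive in 4 of 4 sections (two-sided exact permutation test over sections, p = 0.125, the smallest that 4 sections can give). They formed 113, 105, 72 and 94 separate patches, of which the largest held 28, 50, 49 and 65 spots, and 78, 69, 42 and 52 high spots touched no other high spot. Border spots, those at most 3 steps from a grid position without tissue, made up 43.0%, 36.0%, 74.0% and 26.6% of high spots against 17.3%, 19.3%, 19.5% and 15.0% of lower-half spots. That is a log2 ratio of 1.24 ± 0.50 (SD, n = 4), above 0 in 4 of 4 sections (exact permutation test, p = 0.125). The tissue of CC080F1 replicate 1 bent around a wide gap without tissue, and high spots lined much of that inner rim. Median depth was lower in high spots in every section but CC075F1 replicate 2. It was 23797, 41215, 33543 and 31316 UMIs per high spot and 31092, 39516, 34904 and 36693 per lower-half spot. The mean log2 ratio was -0.15 ± 0.20 (exact permutation test, p = 0.375), and 4 sections are too few to show that depth was alike.

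**Figure D1:**
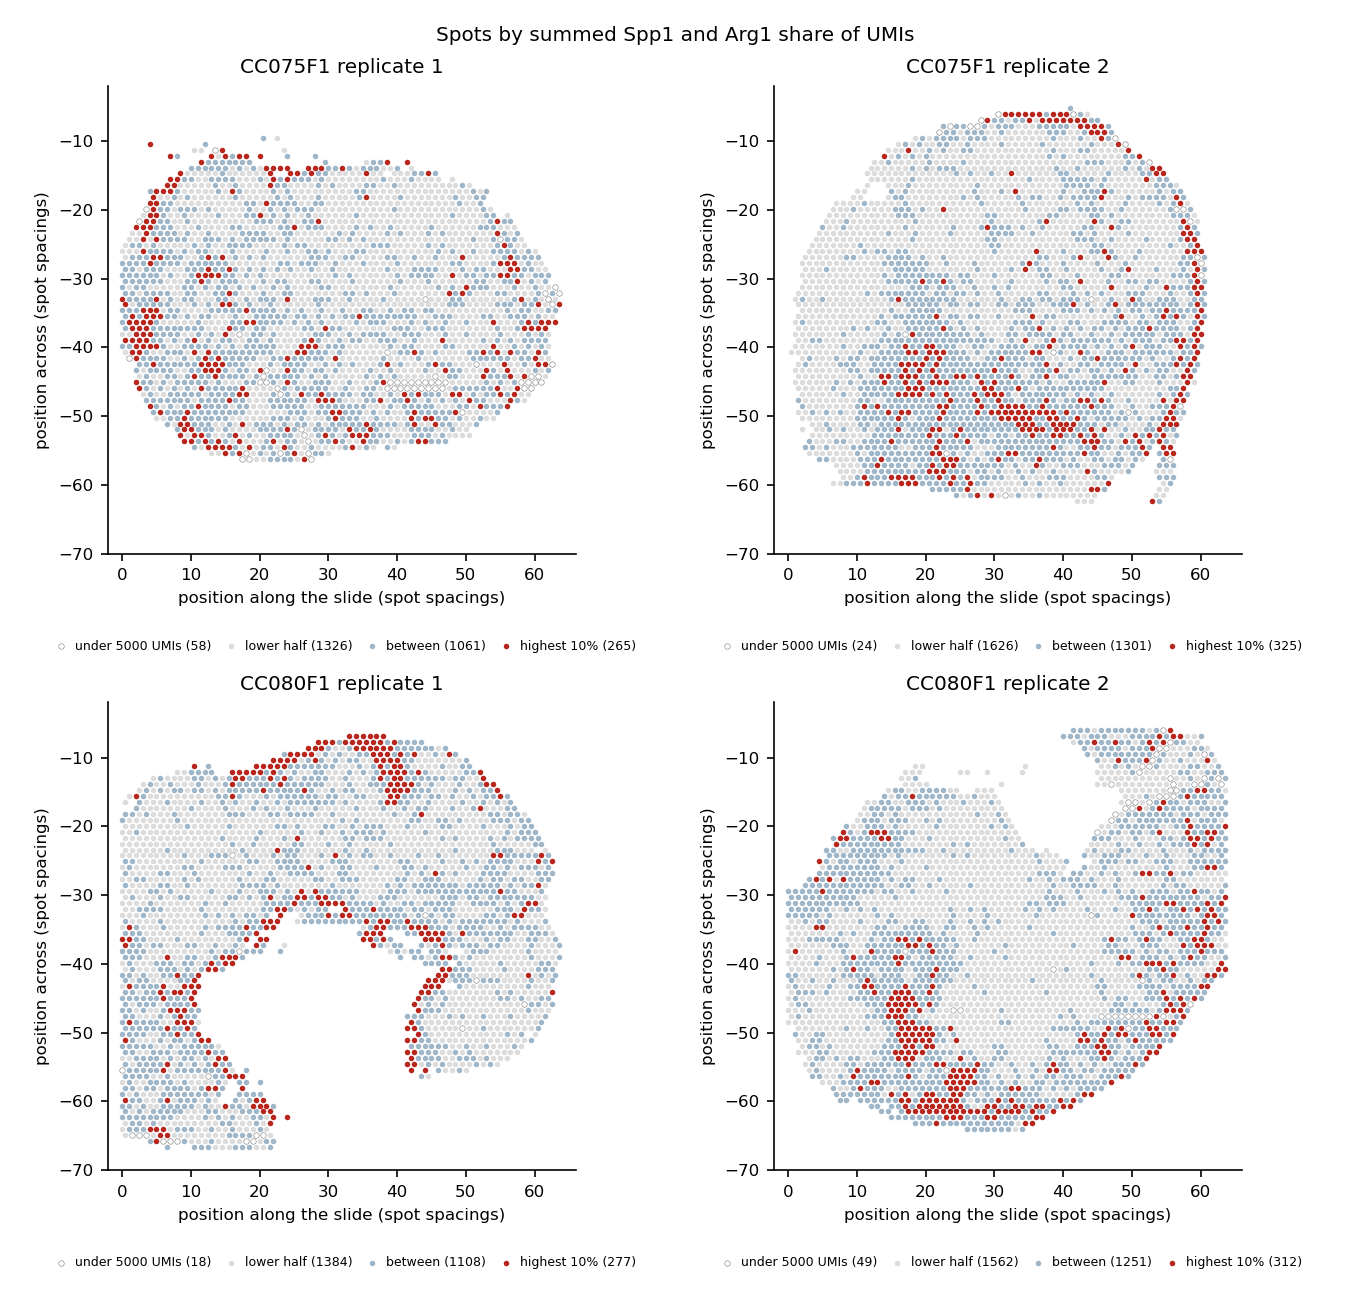
Maps of the 4 sections, with each point a spot at its place on the slide in units of the spacing between spots. Red spots are the highest 10% by summed Spp1 and Arg1 share, blue spots lie between, light grey spots are lower-half spots and open circles hold under 5000 UMIs. Red spots gather in patches of up to 28, 50, 49 and 65 spots and along tissue borders.

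To ask what else differed in these spots, UMIs were summed over the high and over the lower-half spots of each section, and the 8 sums were fitted with the section as a block, leaving out Spp1 and Arg1. Of 13530 genes tested, 331 passed an adjusted p of 0.05 (2.45%), 252 higher (1.86%) and 79 lower (0.584%) in high spots, and 2890 had an unadjusted p under 0.05 (21.4%). Of the 331, 325 differed in the same direction in all 4 sections by CPM. The paired fit favours such genes, so this is no separate support for them. By CPM, which lack the scaling of the fits, 6.7% of all tested genes were higher in all 4 sections and 26.6% lower. Scaled by library size alone the split was 116 higher and 119 lower, and the median of all genes moved to -0.11. The count rested on the choice of sections, since 26, 23 and 29 genes were called without CC075F1 replicate 2, CC080F1 replicate 1 and CC080F1 replicate 2, and 1360 without CC075F1 replicate 1, among them all 331. It also rested on the ranking, with 16 genes called for spots ranked on Spp1 alone, 944 on Arg1 alone and 69 on the neighbouring spots. Of the called genes that could be fitted, 331 of 331, 317 of 328 and 327 of 327 kept their direction. These rankings share spots with the main one, so the kept direction is not independent of it. For Spp1 alone, 207 of 265, 300 of 325, 215 of 277 and 271 of 312 of the highest spots were Spp1/Arg1-high. For the neighbouring spots, 43.9%, 46.6%, 60.6% and 51.6% were. In these sums a larger number of cells of a type and more RNA per cell cannot be told apart.

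Among called genes with a mean of 20 CPM or more, Mmp12 and Gzmg had the largest log2 fold changes. Mmp12 encodes macrophage elastase, a secreted protease that degrades elastin. It stood at 84.9, 18.2, 61.9 and 24.8 CPM in high spots and at 5.39, 2.12, 2.64 and 3.06 CPM in lower-half spots. Every high value lay above every lower-half value. The log2 fold change was 3.78 (SE 0.22, adjusted p = 0.00097). It was also higher in spots ranked on Arg1 alone (3.70), on Spp1 alone (2.93), and on their neighbours (3.72). Its level was lower with distance, from 84.9 CPM in the high spots of CC075F1 replicate 1 to 17.1 CPM in spots 1 step away, 9.68 CPM at 2 steps and 2.68 CPM at 5 or more, and from 61.9 to 13.2, 5.49 and 1.43 CPM in CC080F1 replicate 1. In CC075F1 replicate 2 it went from 18.2 to 8.89, 5.97 and 2.06 CPM and in CC080F1 replicate 2 from 24.8 to 16.7, 12.3 and 3.09 CPM, a slower decline.

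Lgals3, galectin 3, a sugar-binding protein of macrophages and tumor cells, was the gene whose level followed the summed Spp1 and Arg1 share most closely across spots. It stood at 336, 537, 263 and 322 CPM in high spots and 181, 256, 101 and 141 CPM in lower-half spots. The level was higher in each section, and the lowest high value lay just above the highest lower-half value. Its log2 fold change was 1.24 (SE 0.09, adjusted p = 0.00233) and its mean Spearman correlation over 4 sections was 0.35, the first of 6085 genes ranked. The next in that order were Pgk1, Ldha, Aldoa, Ero1l, Ctsl, Mif, 2410006H16Rik, Btg1 and Fau, with means of 0.33 to 0.27. In CC075F1 replicate 1 the correlation was 0.23 for Lgals3 and 0.22 for Ctsl but under 0.12 for the other 8. These are correlations across spots of the same 4 libraries, and no test was made of them.

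Among all genes tested 1.86% were higher and 0.584% lower, and the counts of each list below are set against these shares. Of 19 tested genes on a list of the Spp1-type macrophage state, 9 were higher, 0 lower and 17 had a positive log2 fold change. The list median was 0.27, against -0.005 over all genes tested. Beside Mmp12 and Lgals3 the higher genes were Il7r at 1.58, an interleukin 7 receptor chain, Hmox1 at 1.12, the heme-degrading oxygenase, and Gpnmb at 0.64, a lysosomal glycoprotein. The others were Plin2 at 0.49, which coats lipid droplets, Ctsl at 0.44, a lysosomal protease, and also Cd9 and Ctsd. Trem2, the lipid receptor often used to name this state, stood at 59.5, 52.3, 60.7 and 60.1 CPM in high spots and 58.7, 59.8, 59.7 and 56.1 CPM in lower-half spots. These values overlap, and its log2 difference was 0.09 (SE 0.06, adjusted p = 0.456). The summed level of the list was 1.06, 0.94, 1.08 and 0.99 times the level of lower-half spots. Without any one of the sections other than CC075F1 replicate 1, 2 or 3 genes of the list were called.

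Of 18 pan-macrophage genes tested, 2 were higher and 0 lower, where 1.86% of all genes tested were higher. The list median was -0.06. The summed CPM, which lacks the scaling of the fits, was 0.97, 0.85, 0.89 and 0.95 times that of lower-half spots. Among the higher genes was Cd14, the lipopolysaccharide co-receptor, at a log2 fold change of 0.81 (SE 0.14, adjusted p = 0.035). Adgre1, which encodes F4/80, stood at 64.1, 39.9, 53.5 and 59.8 CPM in high spots against 78.3, 51.5, 68.0 and 62.8 CPM (log2 difference -0.16, SE 0.07, adjusted p = 0.241). Csf1r, the macrophage growth factor receptor, differed by -0.24 (SE 0.08, adjusted p = 0.143). Among 15 genes of resident-like macrophages, F13a1, a clotting factor chain, was higher by 1.00 (SE 0.18) and Lyve1, a hyaluronan receptor, by 1.45 (SE 0.26), while Selenop, a selenium carrier, was lower by a log2 value of -0.45 (SE 0.09). Of the 15, 3 had a positive log2 fold change, and the list median was -0.24. Away from the border Lyve1 differed by -0.03, and in spots ranked on Spp1 alone by 0.08. Fcgr2b, the inhibitory receptor for IgG, and Cebpb, a transcription factor that drives Arg1 and other inflammatory genes in myeloid cells, were on no list and were chosen after their values were seen. Fcgr2b stood at 87.9, 56.1, 76.4 and 75.9 CPM against 49.1, 41.4, 45.5 and 54.8 CPM, which is all high values above all lower-half values (log2 fold change 0.72, SE 0.06, adjusted p = 0.00473), and Cebpb was higher by 0.91 (SE 0.09, adjusted p = 0.0078).

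**Figure D2:**
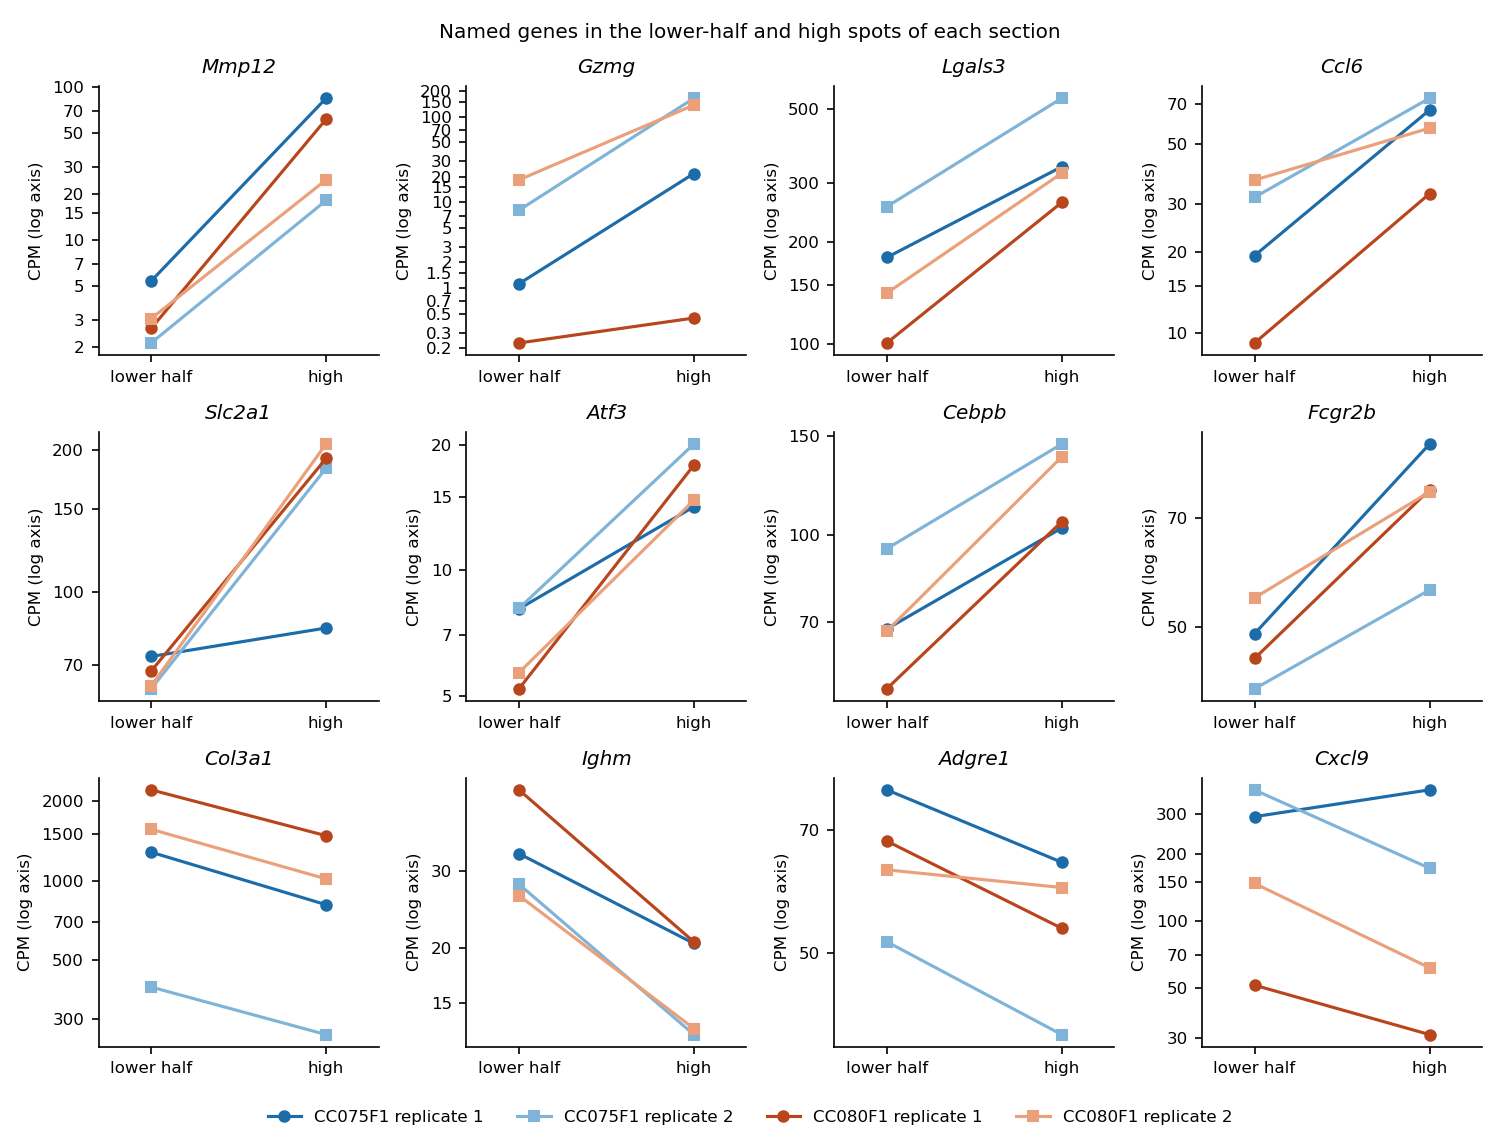
CPM of 12 genes in the summed lower-half and high spots of each section, on log axes, with 1 line per section. Mmp12, Lgals3, Ccl6 and Fcgr2b rise in all 4 sections, Col3a1 and Ighm fall in all 4, Slc2a1 is nearly level in CC075F1 replicate 1, and Cxcl9 rises there and falls in the other 3 sections.

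Genes of the hypoxia response gave the most calls of the 31 lists. They are switched on when oxygen is short and the factors HIF1α and HIF2α are no longer degraded, and they carry glucose, drive glycolysis, recruit vessels and slow respiration. Of 22 tested, 12 were higher, 0 lower and 21 positive, with a median log2 fold change of 0.79. Slc2a1, the glucose transporter GLUT1, stood at 84.0, 183, 192 and 206 CPM in high spots and at 73.1, 62.5, 68.1 and 63.3 CPM in lower-half spots (log2 fold change 1.37, SE 0.23, adjusted p = 0.0343). High and lower-half spots were about 3-fold apart in 3 sections and nearly level in CC075F1 replicate 1. Bnip3, a mitophagy receptor, followed the same course with 136, 307, 199 and 272 CPM against 133, 86.1, 72.2 and 75.0 CPM (log2 fold change 1.43, SE 0.29, adjusted p = 0.0464). Car9, the carbonic anhydrase that exports acid, was higher by 2.04 (SE 0.34), Ero1l, which re-oxidises the enzyme that forms disulfide bonds, by 1.59 (SE 0.27), and Vegfa, the vessel growth factor, by 0.83 (SE 0.15).

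Of 15 glycolysis genes 8 were higher and 0 lower, with a median of 0.51. Aldoa, the muscle-type aldolase, was higher by 0.75 (SE 0.13) and Pgk1, phosphoglycerate kinase, by 0.74 (SE 0.14). In CC075F1 replicate 1 the hypoxia list summed to 1.06 times the level of lower-half spots. It summed to 2.14, 1.87 and 2.31 times in the other sections. Without CC075F1 replicate 1, 19 hypoxia and 14 glycolysis genes were higher and 1 glycolysis gene lower. That fit called 791 higher and 569 lower of 13765 genes tested. Without any one of the other 3, or with spots ranked on their neighbours, 0 genes of either list passed, and with border spots left out 6 and 2 did.

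The promoters of these genes were searched for the hypoxia element. Hypoxia-inducible factors bind a core of ACGTG or GCGTG, and both strands of the 250 bases before the annotated start were searched for it (RefSeq, GRCm38.p6, the first entry of each gene). It was present in 13 of the 18 called hypoxia and glycolysis genes with an entry (72.2%) and in 52.3% of all genes called higher with one. The share was 56.0% of 10455 tested genes with an entry and 38.6% of all 32851 promoters. The 18 genes come from lists drawn up by pathway, so their share says nothing about the spots. A match of these letters is a description and not evidence of binding. Pgk1, Bnip3 and Slc2a1 are printed 5′ to 3′ with the core in capitals, and CACGTG holds 2 overlapping matches, 1 on each strand.
Pgk1, chrX:106186850-106187099, plus strand: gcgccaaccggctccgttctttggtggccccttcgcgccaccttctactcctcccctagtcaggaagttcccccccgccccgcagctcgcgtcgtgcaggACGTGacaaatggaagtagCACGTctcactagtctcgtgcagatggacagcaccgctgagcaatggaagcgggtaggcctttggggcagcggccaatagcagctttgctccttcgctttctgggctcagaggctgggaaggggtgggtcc
Bnip3, chr7:138909507-138909756, minus strand: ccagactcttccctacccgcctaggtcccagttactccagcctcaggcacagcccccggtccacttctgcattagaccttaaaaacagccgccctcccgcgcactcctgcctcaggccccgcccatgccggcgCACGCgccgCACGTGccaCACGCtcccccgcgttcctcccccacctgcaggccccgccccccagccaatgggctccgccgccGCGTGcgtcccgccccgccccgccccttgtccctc
Slc2a1, chr4:119108495-119108744, plus strand: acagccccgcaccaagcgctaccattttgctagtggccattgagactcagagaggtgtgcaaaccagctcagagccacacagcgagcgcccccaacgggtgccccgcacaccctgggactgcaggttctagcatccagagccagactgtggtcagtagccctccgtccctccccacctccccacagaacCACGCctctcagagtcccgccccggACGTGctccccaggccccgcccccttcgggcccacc

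The response to amino acid shortage and misfolded protein runs through the kinases PERK and GCN2 and the factor ATF4. Of 18 genes tested 8 were higher and 0 lower, with a median of 0.38. Atf3, a stress-induced transcription factor, stood at 14.2, 20.1, 17.9 and 14.7 CPM in high spots and 8.09, 8.12, 5.21 and 5.70 CPM in lower-half spots, with no overlap between them (log2 fold change 1.43, SE 0.15, adjusted p = 0.00825). Trib3, a pseudokinase that dampens ATF4, was higher by 1.42 (SE 0.23), Ddit3, the factor CHOP, by 1.20 (SE 0.24), Slc7a11, the cystine importer, by 1.10 (SE 0.22) and Chac1, which degrades glutathione, by 1.08 (SE 0.21). Trib3 and Chac1 moved less in spots ranked on Arg1 alone (0.65 and 0.40) than in spots ranked on Spp1 alone (1.26 and 1.00), a difference that was not tested.

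The composite element that CHOP and ATF4 bind is TGATGNAA, searched on both strands in the same 250 bases. It was present in 3 of the 8 called stress genes (37.5%) and in 5.08% of all genes called higher with an entry. The share was 1.99% of tested genes and 3.45% of all promoters. Atf3, Chac1 and Slc7a11 held it. Atf3 and Chac1 are printed with it and the ACGTG or GCGTG core in capitals, and Spp1, whose first-listed promoter held neither, is printed beside them for comparison. That these letters are missing from a window says nothing about the factors. The 8 stress genes come from a list drawn up by pathway, so their share says nothing about the spots.
Atf3, chr1:191183334-191183583, minus strand: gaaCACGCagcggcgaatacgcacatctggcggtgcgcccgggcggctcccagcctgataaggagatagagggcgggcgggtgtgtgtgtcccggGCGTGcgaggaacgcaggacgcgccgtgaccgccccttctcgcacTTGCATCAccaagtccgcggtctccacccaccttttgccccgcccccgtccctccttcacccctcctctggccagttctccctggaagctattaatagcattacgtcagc
Chac1, chr2:119350992-119351241, plus strand: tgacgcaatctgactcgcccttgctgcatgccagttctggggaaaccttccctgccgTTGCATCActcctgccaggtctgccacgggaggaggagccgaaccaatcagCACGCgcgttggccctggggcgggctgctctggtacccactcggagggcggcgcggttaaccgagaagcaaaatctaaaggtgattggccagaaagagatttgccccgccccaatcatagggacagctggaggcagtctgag
Spp1, chr5:104434861-104435110, plus strand: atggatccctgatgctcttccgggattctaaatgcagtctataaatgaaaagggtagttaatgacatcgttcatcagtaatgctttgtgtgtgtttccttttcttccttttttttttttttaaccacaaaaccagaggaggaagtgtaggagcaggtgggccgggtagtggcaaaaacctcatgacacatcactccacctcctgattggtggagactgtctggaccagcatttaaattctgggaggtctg

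Of 17 tested genes of neutrophils and inflammatory myeloid cells 7 were higher and 0 lower, with a median of 1.42. S100a8 and S100a9, the calprotectin subunits that fill neutrophils, stood at 1.64 to 5.70 CPM in high spots and 0.244 to 1.21 CPM in lower-half spots (log2 fold changes 1.78, SE 0.21, and 1.91, SE 0.28). Cxcl3, a neutrophil-attracting chemokine, stood at 4.63, 1.31, 10.2 and 0.665 CPM against 0.244, 0.0981, 0.228 and 0.0524 CPM (log2 fold change 4.58, SE 0.35, adjusted p = 0.0033). The high values lay above the lower-half values in every section. Cxcl2, of the same kind, was higher by 2.82 (SE 0.51), Il1rn, the interleukin 1 receptor antagonist, by 1.66 (SE 0.26), and Clec4e, the receptor Mincle for dead cells and mycobacteria, by 1.42 (SE 0.22). Il1b itself stood at 12.0, 22.8, 29.0 and 7.69 CPM against 6.19, 13.2, 3.80 and 4.28 CPM (log2 difference 1.49, SE 0.32, adjusted p = 0.053). The summed list was 2.85 times the level of lower-half spots in CC080F1 replicate 1, whose high spots lay at the border most often, and 1.29 to 1.45 times in the other sections. In that section erythrocyte genes also summed to 4.17 times the level of lower-half spots (0.87 to 1.15 times elsewhere), and their part in the result was not tested. Without any one of the sections other than CC075F1 replicate 1, 1 to 3 genes of the list were called.

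Of 15 chemokine genes 4 were higher and 0 lower, with a median of 0.46. Ccl6, a chemokine of rodent myeloid cells, stood at 66.5, 73.5, 32.7 and 57.1 CPM against 19.4, 31.8, 9.22 and 36.7 CPM (log2 fold change 1.44, SE 0.16, adjusted p = 0.0123). Ccl4 and Ccl9 were higher by 0.70 (SE 0.12) and 0.68 (SE 0.13), and Cxcl5 by 1.94 (SE 0.39) from levels of at most 1.04 CPM. Matrix-degrading and wound genes beyond Mmp12 were higher in 4 further cases of 15 tested, with 0 lower and a list median of 0.61. They were Mmp13, a collagenase, at 1.298 (SE 0.26), Timp1, the inhibitor of metalloproteases, at 0.81 (SE 0.09), Plaur, the urokinase receptor, at 0.64 (SE 0.13), and Fn1, fibronectin, at 0.61 (SE 0.10).

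Genes that act with the 2 markers gave 1 or 2 calls a list, where 2.45% of all genes tested were called. Among 14 tested receptors and proteases of osteopontin, Plaur alone passed, and Cd44, a receptor of osteopontin, differed by 0.42 (SE 0.10, adjusted p = 0.0699). Among 19 genes of arginine and polyamine metabolism 2 were higher, Slc7a2, an arginine importer of activated macrophages, by 1.54 (SE 0.28) and Smox, spermine oxidase, by 0.59 (SE 0.09). Nos2, the nitric oxide synthase that competes with arginase, stood at 11.2, 7.37, 15.6 and 6.65 CPM against 12.1, 2.82, 6.71 and 2.95 CPM (log2 difference 1.01, SE 0.25, adjusted p = 0.0728). Its high value lay below the lower-half value in CC075F1 replicate 1 and above it in the other sections. Of 14 tested genes of interleukin 4-type activation only Klf4, a transcription factor, passed, at 0.68 (SE 0.09).

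**Figure D3:**
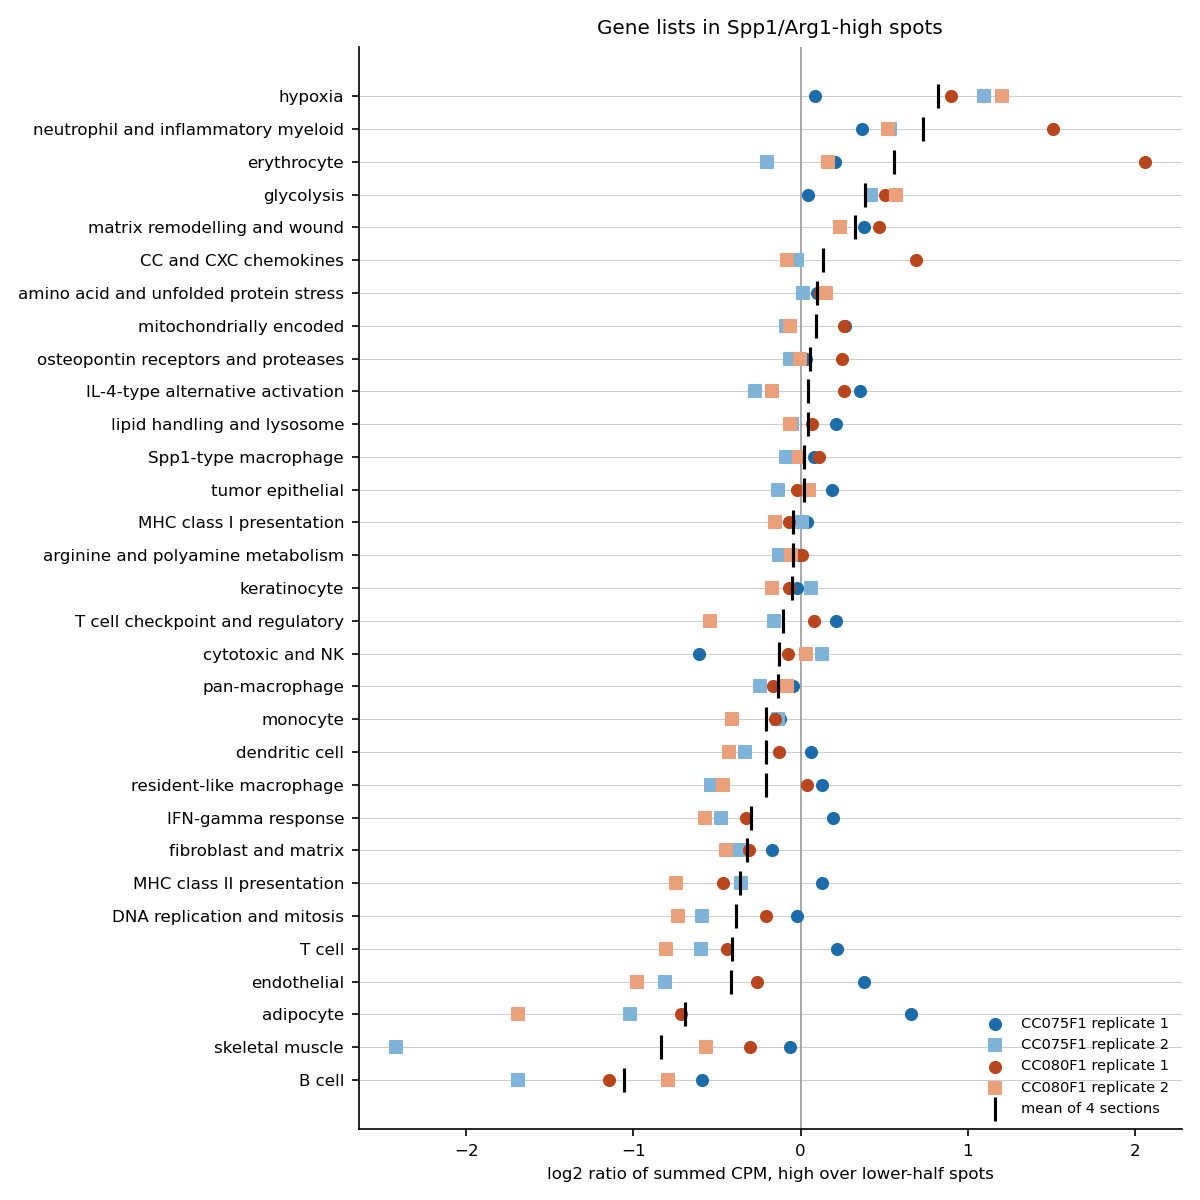
Log2 ratio of summed CPM in high over lower-half spots for each of 31 gene lists, with 1 point per section and a bar at the mean. These CPM lack the scaling used in the fits. Hypoxia lies at 1.06-fold in CC075F1 replicate 1 and at 1.87- to 2.31-fold in the other sections, pan-macrophage lies below 0 in all 4, and the T cell, interferon-γ, MHC class II and endothelial lists lie above 0 in CC075F1 replicate 1 and below 0 in the other 3.

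Transcripts of a granzyme cluster were among those with the largest change, but they lay largely in other spots than Mmp12. Gzmd, Gzme, Gzmf and Gzmg lie next to each other on chromosome 14 and encode close relatives of the killer-cell protease granzyme B, so that reads can be shared between them and the value of each is uncertain. Gzmg stood at 21.7, 164, 0.447 and 137 CPM in high spots and 1.12, 8.09, 0.228 and 18.3 CPM in lower-half spots (log2 fold change 3.80, SE 0.30, adjusted p = 0.00339). High values exceeded lower-half values in each section, but CC080F1 replicate 1 had next to none of either. Gzme, Gzmf and Gzmd gave 3.32, 3.25 and 3.18. In spots ranked on Arg1 alone the 4 genes were lower in the highest 10%, Gzmg by a log2 value of -1.41, Gzmf by -1.23, Gzme by -1.06 and Gzmd by -1.05, all past the threshold. In spots ranked on their neighbours their log2 differences were 0.02 to 0.20, against 3.72 for Mmp12. The classes ranked on Arg1 alone also differed in place and depth, most in CC080F1 replicate 2. There 56.7% of the highest 10% lay at the border against 10.2% of lower-half spots, with median depths of 23579.5 and 36982.5 UMIs. The part of place and depth in these differences was not tested.

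At least 1 UMI of the 4 genes was found in 161, 1575, 184 and 2199 ranked spots of the 4 sections. In the sections other than CC080F1 replicate 1 most of the UMIs lay in few spots. Spots with 20 or more UMIs of the 4 genes, a limit chosen after the values were seen, numbered 3, 85, 0 and 161 in the 4 sections and held 56.7%, 72.3%, 0.0% and 55.6% of the UMIs, with up to 784 in 1 spot. Of these spots 2, 38 and 36 were Spp1/Arg1-high and 0, 7 and 37 lower-half in the 3 sections that had any. High spots held 50.5%, 56.5%, 20.9% and 26.9% of the UMIs of the 4 genes. Granzyme-rich spots, those with 20 or more of these UMIs whether high or not, held 840, 505 and 594 CPM of Spp1, the first value from only 3 spots. Lower-half spots, which the ranking chose to be low in both markers, held 60.5, 76.1 and 203 CPM of it. Spots between the 2 classes held 161, 251 and 487 CPM of it. Arg1 (0, 9.50 and 37.2 CPM) and Mmp12 (0, 5.601 and 3.63 CPM) were low in granzyme-rich spots. Prf1, perforin, stood at 152, 63.3 and 79.3 CPM in them and at 3.32, 3.01 and 12.9 CPM in high spots that were not granzyme-rich. In granzyme-rich spots Cd3e, of the T cell receptor complex, stood at 0, 2.68 and 0.279 CPM and Cd8a at 11.7, 5.36 and 0.698 CPM. Klrd1, an NK and T cell receptor chain, stood at 35.0, 23.6 and 14.0 CPM there. It stood at 9.65, 6.85 and 7.63 CPM in high spots that were not granzyme-rich and at 8.97, 11.5 and 8.37 CPM in lower-half spots. Other NK and cytotoxic genes did not all follow. Ifng stood at 0, 0.731 and 0.698 CPM in granzyme-rich spots against 2.71, 2.69 and 1.08 CPM in lower-half spots. Nkg7 stood at 23.3, 29.5 and 12.2 CPM against 19.1, 29.1 and 7.79 CPM, and Ncr1 at 0, 0.974 and 4.05 CPM against 0.390, 0.869 and 2.81 CPM.

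With granzyme-rich spots left out, an alternative chosen after the values were seen, 285 genes were called, 277 of them shared with the 331. Mmp12 gave 3.83 and Lgals3 1.27. Gzmg is 1 of the 4 genes that defined the spots left out, which lowers it by design, and gave 0.47. Gzmb, higher by 0.87 (SE 0.15, adjusted p = 0.0343) among all spots, gave 0.16. Prf1 gave 1.08 (SE 0.23, adjusted p = 0.053) with these spots and -0.13 without them. The 4 granzymes were more abundant in high spots without a high neighbour, with 188, 1531, 32.3 and 838 CPM summed, against 1.83, 127, 2.87 and 188 CPM in high spots with at least 2 high neighbours. Mmp12 went the other way in 3 sections, with 30.2, 5.36 and 12.3 CPM against 141, 24.96 and 77.4 CPM, and stood at 51.7 against 15.7 CPM in CC080F1 replicate 2.

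**Figure D4:**
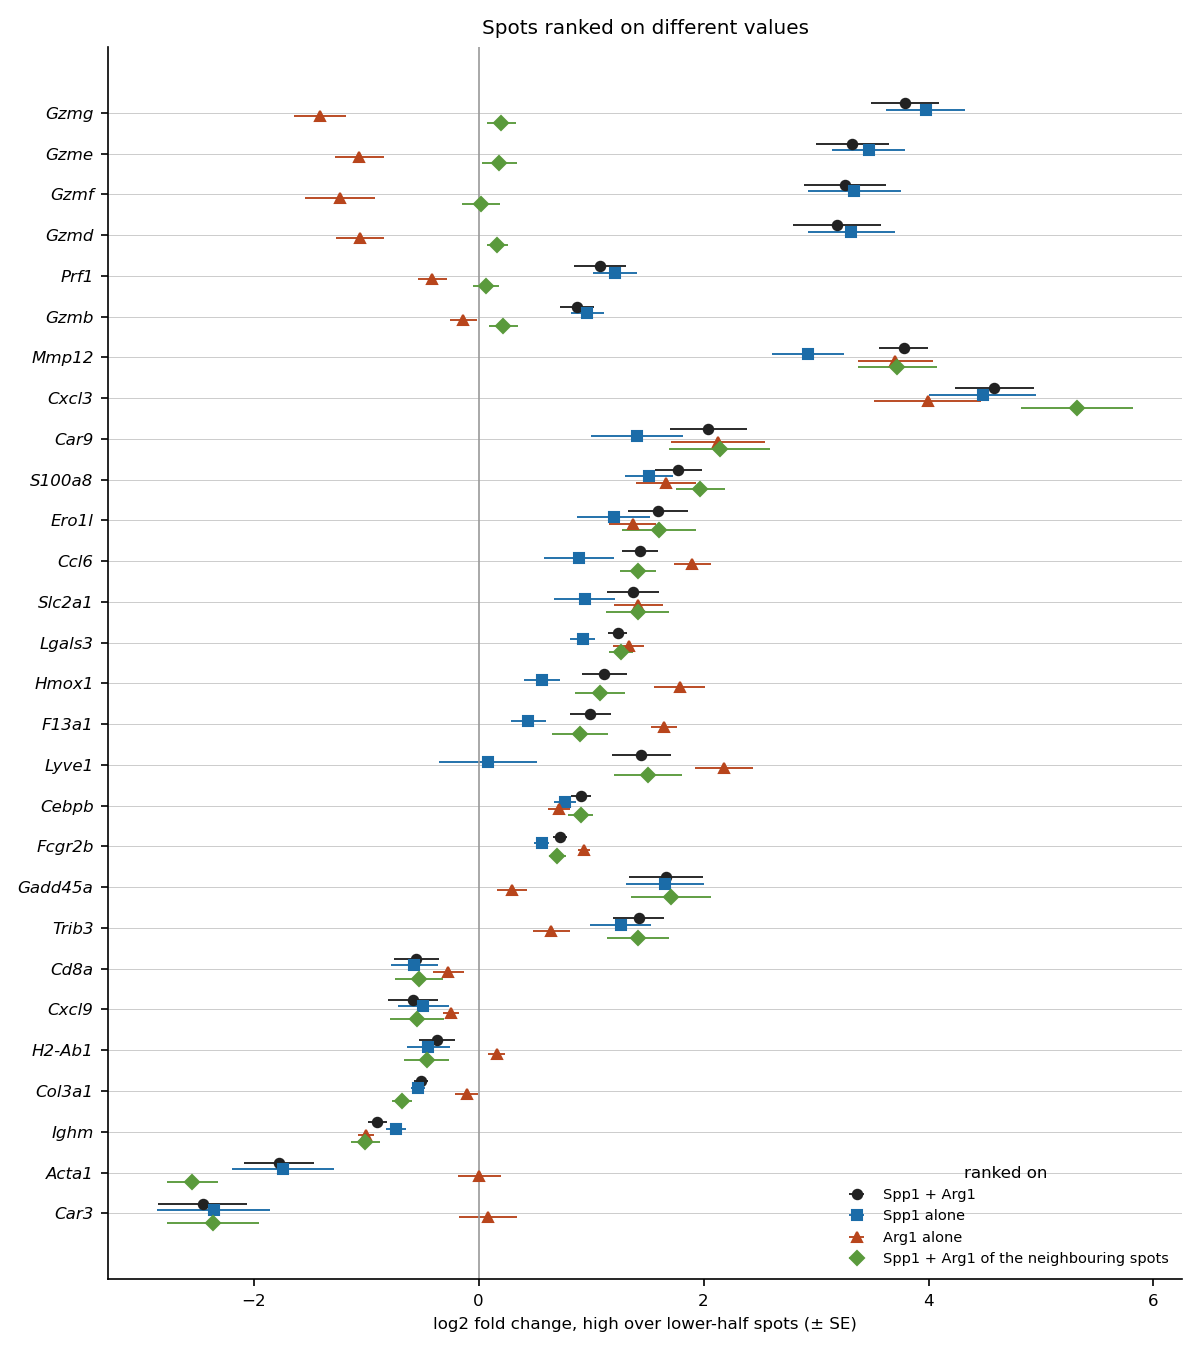
Log2 fold change with its SE of 28 genes in high over lower-half spots (4 paired sections), for spots ranked on both markers, on Spp1 alone, on Arg1 alone, or on both markers in the neighbouring spots. Gzmd to Gzmg lie between 3.18 and 3.80 for both markers, at or below -1.05 for Arg1 alone and near 0 for the neighbours, while Mmp12 lies at 2.93 or above in all 4 rankings.

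Of the T cell, interferon and antigen presentation lists, 1 gene passed the test. Of 18 T cell genes tested 0 passed and 0 had a positive log2 fold change, with a median of -0.34. Cd3e stood at 2.69, 1.75, 0.893 and 0.665 CPM against 3.93, 3.14, 1.35 and 1.57 CPM (log2 difference -0.68, SE 0.21, adjusted p = 0.115), and Cd8a differed by -0.55 (SE 0.20, adjusted p = 0.16). Of 21 genes of the interferon-γ response 1 was higher, 0 lower and 2 positive, with a median of -0.17. The higher gene was Cd274, which encodes PD-L1, the ligand of PD-1. It stood at 14.5, 8.83, 9.60 and 8.83 CPM in high spots and 7.63, 6.17, 6.85 and 6.26 CPM in lower-half spots, with every high value above every lower-half value (log2 fold change 0.71, SE 0.11, adjusted p = 0.0265). Cxcl9, the chemokine that draws CXCR3-bearing T cells, stood at 387, 172, 30.9 and 61.6 CPM against 293, 386, 51.5 and 147 CPM (log2 difference -0.58, SE 0.22, adjusted p = 0.183). It was higher than in lower-half spots in CC075F1 replicate 1 and lower in the other 3 sections, and without that section its log2 fold change passed the threshold (-0.94), as did Cd8a (-0.87). H2-Ab1, an MHC class II chain, followed the same order with 891, 409, 84.9 and 95.5 CPM against 760, 560, 127 and 207 CPM (log2 difference -0.37, SE 0.16, adjusted p = 0.234). None of 10 class II and 11 class I presentation genes passed. Without CC075F1 replicate 1, 791 genes were called higher and 569 lower of 13765 tested. In that fit H2-Ab1 passed (-0.58), as did 4 lower of 17 T cell and 10 lower and 1 higher of 21 interferon-γ genes. The same fit called 5 lower of 10 class II, 2 lower of 11 class I and 7 lower of 15 endothelial genes.

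Levels were also read by distance from the nearest high spot. Cxcl9 stood at 172, 228, 251, 281, 290 and 464 CPM at 0, 1, 2, 3, 4 and 5 or more steps in CC075F1 replicate 2, at 30.9, 44.4, 42.9, 48.6, 56.1 and 59.5 CPM in CC080F1 replicate 1, and at 61.6 CPM in high spots and 162 CPM at 5 or more steps in CC080F1 replicate 2. In CC075F1 replicate 1 it went the other way, from 387 to 246 CPM. The hypoxia list summed to 2105, 2007 and 2474 CPM in the high spots of the other 3 sections and to 946, 938 and 889 CPM at 5 or more steps. In CC075F1 replicate 1 it stood at 1444, 1422, 1292, 1343, 1384 and 1369 CPM, with no steady course. Where spots were ranked within 10 bins of the hypoxia list, so that high and lower-half spots had like hypoxia levels, 323 genes were called, of which 176 were among the 331. Mmp12 (2.67), Ccl6 (1.38) and Lgals3 (0.69) then stayed past the threshold, and Cxcl9 and Cd8a stood at -0.05 and -0.17. Slc2a1 and Bnip3 belong to the list that set the bins, which levels them by design, and stood at 0.13 and 0.12.

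**Figure D5:**
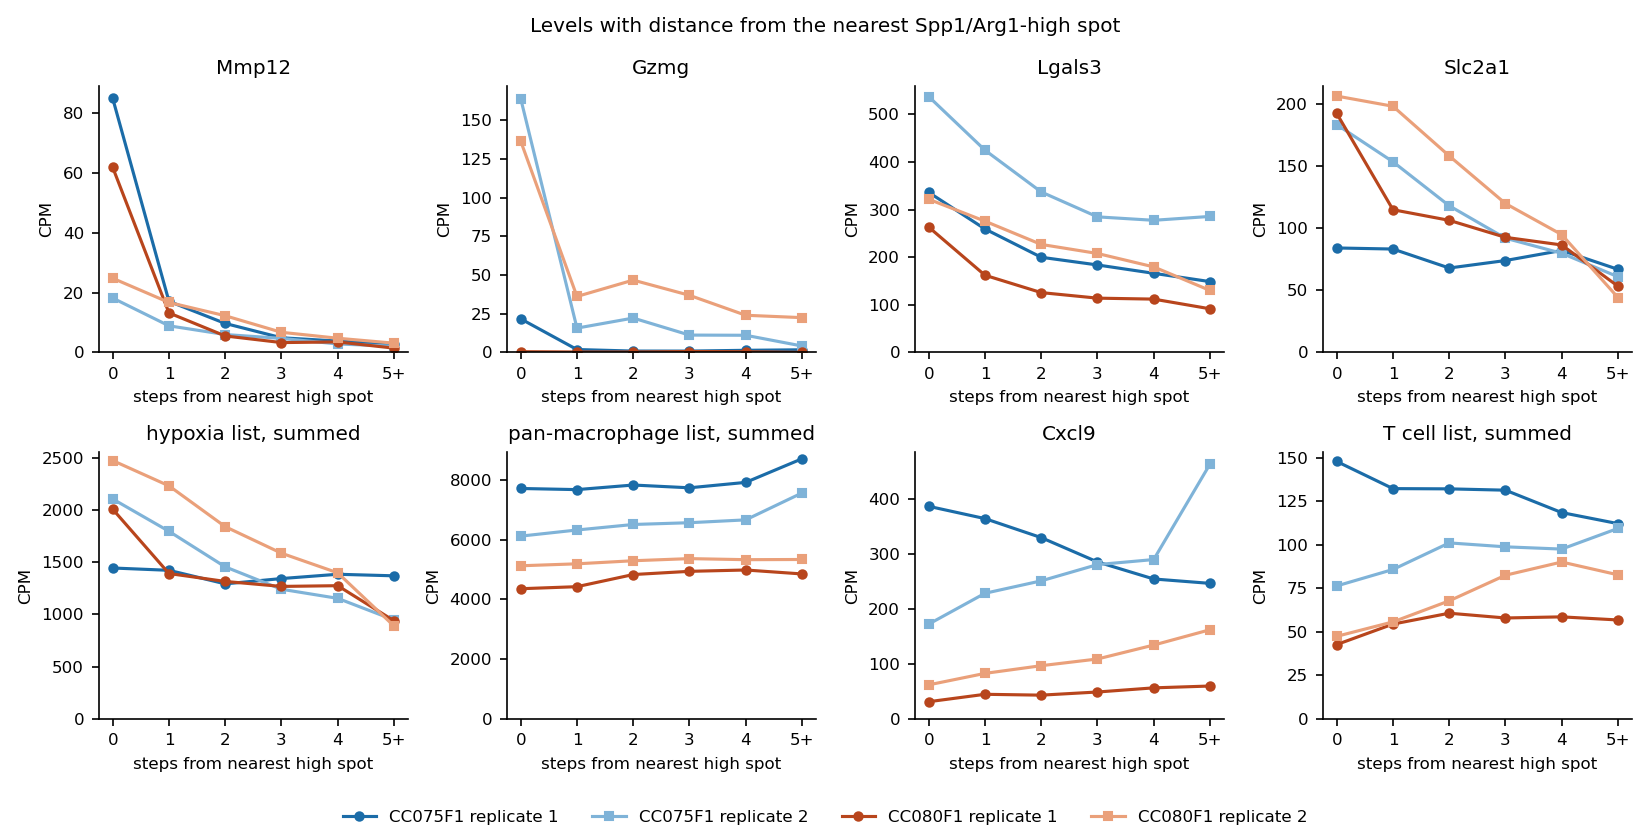
CPM of 4 genes and Cxcl9, and summed CPM of 3 gene lists, in spots at 0 (the high spots) to 5 or more steps from the nearest high spot, with 1 line per section. Mmp12 drops from 84.9 to 17.1 CPM in the first step in CC075F1 replicate 1, the hypoxia list declines in 3 sections, and Cxcl9 climbs from 172 to 464 CPM in CC075F1 replicate 2.

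Of 18 fibroblast and matrix genes 3 were lower, all of them collagens, and 0 higher, while 10 had a positive log2 fold change and the list median was 0.08. Col3a1 stood at 812, 262, 1479 and 1016 CPM in high spots and 1282, 396, 2205 and 1564 CPM in lower-half spots, lower in each section while the sections themselves differed more (log2 fold change -0.51, SE 0.06, adjusted p = 0.0141). Col6a1 and Col5a1 gave -0.58 (SE 0.09) and -0.57 (SE 0.07). Ighm, the heavy chain of IgM, stood at 20.5, 12.7, 20.7 and 13.1 CPM against 32.8, 27.95, 45.9 and 26.3 CPM (log2 fold change -0.90, SE 0.08, adjusted p = 0.00557). All high values lay below all lower-half values. Cilp, a matrix protein, Ccn4, a matricellular Wnt target, Epha7, an ephrin receptor, and Mxd3, a MYC-network factor, gave -0.66, -0.62, -0.61 and -0.58, and Ccdc167 gave -0.60. Of 20 replication and mitosis genes 0 passed and 0 were positive, with a median of -0.31, and Mki67 and Top2a differed by -0.32 (SE 0.10, adjusted p = 0.126) and -0.25 (SE 0.07, adjusted p = 0.111).

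Acat2, which makes acetoacetyl-CoA for sterol synthesis, stood at 25.6, 11.3, 26.8 and 8.26 CPM against 31.6, 22.0, 44.1 and 19.6 CPM (log2 fold change -0.69, SE 0.11, adjusted p = 0.0322). A further 5 enzymes of that pathway were picked from the called genes after their values were seen, with no count of the members that did not pass, Nsdhl at -0.45, Hmgcs1 at -0.44, Mvk at -0.38, Lss at -0.38 and Fdps at -0.33. The largest lower values belonged to a muscle gene and a gene of fat and muscle. Acta1, skeletal muscle actin, stood at 0, 24.7, 4.47 and 0.095 CPM against 0.0975, 132, 6.13 and 0.21 CPM (log2 fold change -1.77, SE 0.31, adjusted p = 0.0353), so that CC075F1 replicate 2, the section with muscle, carried nearly all of it. Car3, a carbonic anhydrase of fat and muscle, gave -2.45 (SE 0.40) from at most 9.80 CPM. In spots ranked on Arg1 alone they differed by 0.0084 and 0.085.

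The other genes among the 10 with the largest higher values follow. Ier3, an early response gene, stood at 15.4, 51.4, 95.2 and 59.6 CPM against 8.27, 21.5, 13.2 and 11.7 CPM (log2 fold change 2.03, SE 0.28, adjusted p = 0.0216). Gadd45a, a DNA damage and stress gene, was higher by 1.66 (SE 0.33) and Ppp1r15a, which restores translation after stress, by 1.60 (SE 0.25). Cox6a2, the muscle-type subunit of cytochrome c oxidase, stood at 22.0, 167, 18.6 and 115 CPM against 14.2, 39.2, 7.48 and 20.3 CPM (log2 fold change 1.87, SE 0.28, adjusted p = 0.0257), although muscle genes were not higher. Gadd45a and Cox6a2 moved less in spots ranked on Arg1 alone (0.30 and 0.54) than on Spp1 alone (1.66 and 1.75). Of 13 mitochondrially encoded genes mt-Co1 alone passed, at 0.44 (SE 0.08). The other lists gave 0 to 3 calls each, where 1.86% of all genes tested were higher and 0.584% lower. They were lipid handling with 2 higher of 18, monocyte with 2 higher and 1 lower of 12, cytotoxic and NK genes with 1 higher of 13, B cell, skeletal muscle and adipocyte genes with 1 lower of 5, 9 and 3, and dendritic, checkpoint, endothelial, erythrocyte, keratinocyte and tumor epithelial genes with 0.

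Whether the high spots of responder and non-responder hosts differed was asked with the interaction of class and strain. In the edgeR fit 0 of 13530 genes passed (0.0%), 360 had an unadjusted p under 0.05 (2.66%), and 5 passed in a DESeq2 fit. With 2 sections per strain this does not show that the strains are alike. The summed hypoxia list differed between the 2 CC075F1 sections (1.06 and 2.14 times) and less between the CC080F1 sections (1.87 and 2.31 times). The log2 difference of Gzmg was larger in CC075F1 by 1.502, that of Ier3 larger in CC080F1 (-1.48), and neither passed.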

How the data were processed

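The authors processed the reads with Space Ranger on GRCm38 (mm10), and what they deposited are unnormalized UMI counts for every gene in each spot under tissue, beside grid positions of the spots. Their later normalization in Seurat 5.0.1 was not used. Spots with 5000 or more UMIs were ranked within a section by the summed share of Spp1 and Arg1. Ties were cut by spot order, which matters most for the ranking on Arg1 alone, since many spots had no Arg1 UMI. Counts of the highest 10% and lower 50% were summed per section (8 sums) and fitted with edgeR 4.0.16 (R 4.3.3) by quasi-likelihood after filterByExpr, with TMM factors, section and class as terms, Spp1 and Arg1 left out, and Benjamini-Hochberg adjustment over all genes tested (threshold 0.05). The class by strain interaction was fitted in the same way. Every adjusted p in the text is from these fits. CPM are UMIs of a gene per 1000000 UMIs of a sum. Section levels, section ratios and list sums are in CPM without TMM factors, while log2 fold changes of the fits use them. The factors of high and lower-half sums were 1.08 and 1.09, 0.71 and 0.80, 1.14 and 1.19, and 0.996 and 1.11 in the 4 sections. Ratios of CPM therefore lie lower than on the scale of the fits, and those near 1 can change side. Section values were compared by two-sided exact permutation of signs. The fits were also run on simulated counts with the same dispersion for all genes and the same class effect in every section. In the real data CC075F1 replicate 1 stood apart, so that run does not measure the error of the calls given here. Spot barcodes are positions of the slide design, and 1666 occurred in all 4 sections.

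The members and the 31 gene lists (442 of 443 genes in the tables) were chosen with earlier results of these data known. Genes were named from lists, and beyond them as the 10 highest and 10 lowest called genes with a mean of 20 CPM or more and 1 direction in all sections, and a few others are said to have been chosen after their values were seen. Gene positions are from GENCODE vM21 and promoters from RefSeq. Alternatives were other scalings, filters, rankings, limits and DESeq2 1.42.0, and each section left out in turn. Steps are moves between adjoining spots. The p-values measure the spread between 4 animals. Values of a few CPM rest on few UMIs. Some results are not reported here.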

Additional observations from a re-analysis of the deposited data

Results flagged for a closer look

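Across 118 sets of 4 section values, 11 held a section whose gap to the others took up more of the whole range than Dixon's limit allows, where chance flags about 1 set in 20. All are log2 ratios of high over lower-half CPM. In CC075F1 replicate 1 the ratio was lowest for Slc2a1 (0.20, others 1.497 to 1.70), Aldoa (0.13, others 0.76 to 0.87) and Nos2 (-0.11, others 1.14 to 1.36). In the same section it was highest for Selenop (-0.13, others -0.71 to -0.64), Cd274 (0.92, others 0.48 to 0.51) and Mvk (-0.15, others -0.64 to -0.56). In CC080F1 replicate 1 it was highest for Il1b (2.90, others 0.79 to 0.94), for the summed neutrophil and inflammatory myeloid list (1.51, others 0.37 to 0.53) and for the summed chemokine list (0.69, others -0.08 to -0.02). It was lowest for S100a8 in CC075F1 replicate 2 (1.18, others 1.68 to 1.73) and for the summed monocyte list in CC080F1 replicate 2 (-0.41, others -0.15 to -0.12). The summed MHC class I list, in CPM without the scaling of the fits, lay just above lower-half spots in both CC075F1 sections. It lay below them in both CC080F1 sections, with means 0.13 apart on the log2 scale, a difference that was not tested.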

How the results depend on the processing

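The count of 331 genes stayed within 1.5 times under 9 alternatives and moved under the others. It was 49 for the highest 20% of spots, 16 ranked on Spp1 alone, 944 on Arg1 alone, 69 on the neighbouring spots, 122 after thinning every spot to 5000 UMIs, 82 without edge spots, 184 within bins of the pan-macrophage list, 615 by DESeq2's Wald test and 932 without a filter on low counts. Leaving out 1 section gave 23 (without CC080F1 replicate 1) to 1360 (without CC075F1 replicate 1). The class by strain count of 0 became 97 on Arg1 alone, 5 after thinning, 4 against all other spots, 11 within hypoxia bins, 5 by DESeq2 and 115 without a filter, and 0 to 207 with 1 section left out. The causes were not tested.

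Both classes of a section come from the same animal, so the section pairs them by design, and with no replicate block 0 genes were called by edgeR (705 at an unadjusted p under 0.05). The replicate numbers of the 2 strains share only a number, and the differences between replicates correlated at 0.30 across genes. With them as a replicate block the class by strain count was 33.

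Of 84 named genes 73 kept their direction throughout. Exceptions on Arg1 alone were Gzmg (-1.41), Gzmf (-1.23), Gzme (-1.06), Gzmd (-1.05), Prf1 (-0.41), Gzmb (-0.14), Acta1 (0.0084), Car3 (0.085) and H2-Ab1 (0.16). Others were Prf1 without granzyme-rich spots (-0.13), Lyve1 without edge spots (-0.027), and Trem2 on Spp1 alone (-0.015) and by library size alone (-0.013). Under the alternatives run for it the log2 edge ratio ranged from 0.78 (edge within 5 steps) to 1.45 (highest 5%), and with spots ranked on their neighbours it was 1.07 to 2.43 in the 4 sections. Under those run for the neighbour excess it ranged from 16.04 (thinned) to 31.1 points. With 4 sections exact tests cannot pass 0.05, and genes at a few CPM rest on few UMIs in high spots.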
